A study of Sus scrofa with 12 samples.

Results

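Leptin, adiponectin, their receptors and 5 other genes of the fat cell were followed in the testis and epididymis of the pig. The 10 genes were selected on what they are known to do and with their levels in these libraries already known. The differences between the tissues are therefore given as a description. Where a call at a threshold is given for one of the 10, it comes from the fit to all genes and only describes the values. Of 30640 gene rows, 9 carried the exact symbols LEP, LEPR, ADIPOQ, ADIPOR2, CFD, FABP4, PLIN1, LPL and LIPE, and 1 more, ADIPOR1, was found through its Ensembl identifier, ENSSSCG00000010931.4. The question put to them was whether LEP reads in testis came together with reads of the other fat cell genes, as they would in a piece of attached fat.

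The animals came from the Banna mini-pig inbred line (BMI), a small pig bred to a near-uniform genotype, and were adult boars without treatment. There were 5 testis and 5 epididymis libraries, and the animal numbers in the file headers pair them, with 1 boar behind replicate 1 of both tissues and so on to replicate 5. The labels give an age of 12 months, while the headers give 12, 12, 11, 17 and 11 months for replicates 1 to 5. Values are reads per gene as a count per 1000000 reads of the library (CPM), where the testis libraries hold 18715154 to 30211957 reads and the epididymis libraries 17980578 to 21937263.

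Leptin is a hormone that white fat cells release as their stores grow. It acts through LEPR, a cytokine receptor that signals by JAK2 and STAT3, and mice and humans without leptin or its receptor are obese and infertile. Adiponectin, the other main hormone of the fat cell, acts through the membrane receptors ADIPOR1 and ADIPOR2 on AMP-activated kinase and on PPARA. The remaining genes take in, bind, store or release lipid in the fat cell, or, as CFD does, serve the complement system. Fat tissue lies along the epididymis and the cord above the testis, and can be cut out with either organ.

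The tissues matched their labels by marker genes: 10 of 10 germ cell genes and 9 of 9 Leydig cell genes tested were called higher in testis, and 7 of 8 tested genes of the epididymal epithelium were called higher in epididymis. A gene is called where the adjusted p of edgeR's quasi-likelihood test is under 0.05. A few libraries stood apart. Testis replicate 4 held 519 CPM of small structural RNAs, against at least 15390 CPM in the other testis libraries. Every epididymis library was also low, from 508 (replicate 3) to 1993 CPM (replicate 2), so this testis library resembled that tissue. Histone genes split alike: testis replicate 4 had 77.7 CPM, epididymis 65.5 to 321, the remaining testis libraries 2177 or more. This RNA content thus went with tissue except in testis replicate 4. Its part in the tissue differences was not tested beyond removing these rows and taking that library as the only testis one. In epididymis replicate 3, 12 of 17 fat cell genes outside the 10 members had their highest epididymal level (70.6%, against 31.7% of all genes tested), with a median of 2.57 times the other epididymis libraries. The same library also had the highest epididymal level of 9 of 10 germ cell genes (8.8 times) and of 8 of 10 fibroblast genes (2.21 times). In a piece of tissue, fewer cells of a type and less RNA per cell cannot be told apart.

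Over all genes, 12814 of 17225 tested were called (74.4%), of which the part higher in testis was 36.6% of the genes tested and the part higher in epididymis 37.8%, with a median log2 difference of -0.07. Differences are testis over epididymis throughout. Of the 9 members that passed the filter on low counts, LEP, LIPE and ADIPOR2 (3) were called higher in testis, LEPR and CFD (2) higher in epididymis, and 4 were not called. FABP4 did not pass. In 3 members the lowest testis value exceeded the highest epididymal one, in 2 (CFD and FABP4) the reverse held, and in 5 the tissues overlapped. The share of all genes that separate the tissues in this way was not computed. Since the members were chosen with these values known, nothing is read from any of these counts.

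**Figure D1:**
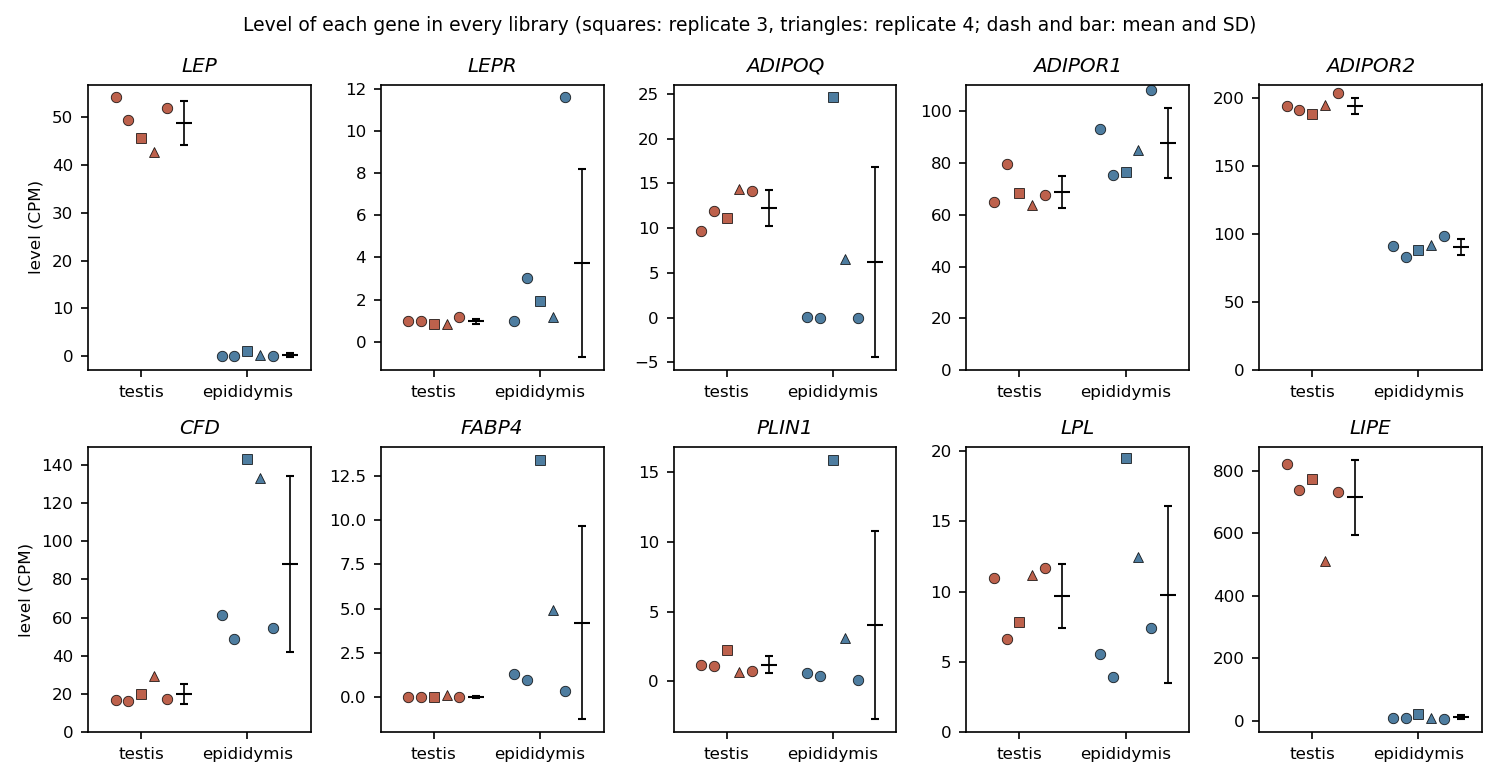
Level of each of the 10 genes in every library, in CPM on a linear axis that differs between panels, with testis in red and epididymis in blue, 1 point per library, and the mean and SD of 5 libraries beside them. Squares are replicate 3 and triangles replicate 4: LEP, LIPE and ADIPOR2 separate the tissues, while the high epididymis points of ADIPOQ (24.6 CPM), FABP4 (13.4 CPM), PLIN1 (15.9 CPM) and LPL (19.5 CPM) are all replicate 3.

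LEP, the leptin gene, was high in testis and near 0 in epididymis. It had 54.0, 49.3, 45.5, 42.6 and 51.9 CPM in testis replicates 1 to 5, against 0, 0.110, 1.19, 0.222 and 0.147 CPM in epididymis replicates 1 to 5. The testis libraries lay close together, with a coefficient of variation of 9.52%, and none came near the epididymis. The epididymal values rest on 35 reads in all, 26 of them in replicate 3, and the 0 of replicate 1 allows up to 0.153 CPM. The means were 48.7 ± 4.63 CPM in testis and 0.333 ± 0.483 CPM in epididymis (SD, n = 5 each), a log2 difference of 7.16 ± 0.71 (SE). Without epididymis replicate 3 it was 8.61. The ratio of the summed counts was 137, with a 95% interval of 98.5 to 197 that covers counting error only. Among all genes with a read in any library, tested or not, the level of LEP per kilobase of gene length stood at percentile 86.6 in testis and 36.3 in epididymis.

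ADIPOQ, which encodes adiponectin, was present in all 5 testis libraries and absent or nearly so from 3 of the epididymis libraries. Its levels were 9.73, 11.9, 11.1, 14.4 and 14.1 CPM in testis, against 0.0509, 0, 24.6, 6.51 and 0 CPM in epididymis. Epididymis replicate 3 lay above every testis library and replicate 4 below them, and the other 3 held 1 read between them. Where there were 0 reads, the counts allow up to 0.164 CPM in replicate 2 and 0.147 CPM in replicate 5. The means were 12.2 ± 2.0 CPM in testis and 6.23 ± 10.6 CPM in epididymis (SD, n = 5 each), with a log2 difference of 1.05 ± 1.26 (SE), which was not called. Without epididymis replicate 3 the difference was 2.99, and without replicates 3 and 4 it was 9.01, both past the threshold. With the boar as a block and all libraries kept it was 4.04, not called. The size of the difference and its call thus depend on epididymis replicates 3 and 4 and on the block.

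LEPR, the leptin receptor, was low in both tissues. It had 0.973, 0.993, 0.833, 0.855 and 1.15 CPM in testis, against 0.967, 3.01, 1.91, 1.17 and 11.6 CPM in epididymis. The testis libraries hardly varied, 2 epididymis libraries lay at about the same level, and epididymis replicate 5 was far above all others. The log2 difference was -1.96 ± 0.66 (SE), with means of 0.961 ± 0.127 CPM in testis and 3.72 ± 4.45 CPM in epididymis (SD, n = 5 each). Without epididymis replicate 5 it was -0.87 and no longer called. With the boar as a block it was -1.30, also no longer called.

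The adiponectin receptors were the steadiest members. ADIPOR2 had 194, 191, 188, 195 and 204 CPM in testis, against 91.1, 83.2, 88.0, 92.2 and 98.3 CPM in epididymis. The tissues were far apart relative to the spread between boars, at 194 ± 6.01 CPM in testis and 90.6 ± 5.58 CPM in epididymis (SD, n = 5 each), a log2 difference of 1.12 ± 0.13 (SE) or 2.17-fold. ADIPOR2 overlaps CACNA2D4, a calcium channel subunit gene with 113 ± 6.5 CPM in testis and 0.621 ± 0.838 CPM in epididymis. The strand setting of the counting is not given in the sources used here, so reads of the overlap cannot be told apart. ADIPOR1 had 65.1, 79.5, 68.3, 63.6 and 67.8 CPM in testis, against 93.0, 75.4, 76.4, 84.9 and 108 CPM in epididymis. Its tissues overlapped through testis replicate 2, and the log2 difference of -0.33 ± 0.17 (SE) was not called.

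CFD encodes adipsin, also known as complement factor D, a protease that fat cells secrete and macrophages also make. It had 17.2, 16.5, 20.3, 29.5 and 17.3 CPM in testis, against 61.4, 48.6, 143, 133 and 54.7 CPM in epididymis. Every epididymis library lay above every testis library, and epididymis replicates 3 and 4 stood well above the others of their tissue. The means were 20.2 ± 5.42 CPM in testis and 88.0 ± 45.6 CPM in epididymis (SD, n = 5 each), a log2 difference of -2.08 ± 0.32 (SE). The summed level of 10 macrophage genes was 127 to 169 CPM in testis and 138 to 464 CPM in epididymis, highest in epididymis replicates 4 and 3. Their part in the CFD difference was not tested. CFD also overlaps MED16, which had 99.4 ± 13.5 CPM in testis and 78.7 ± 17 CPM in epididymis.

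FABP4 and PLIN1 are the most fat-bound of the lipid genes here: FABP4 carries fatty acids in fat cells, and also occurs in small-vessel endothelium and macrophages, while PLIN1 coats the lipid droplet of the fat cell. FABP4 had 0, 0, 0, 0.107 and 0 CPM in testis, against 1.32, 0.986, 13.4, 4.95 and 0.343 CPM in epididymis. That is 2 reads over all testis libraries and 435 over all epididymis libraries, so that epididymis over testis is 253 (95% counting interval 69.7 to 2098). A count of 0 allows up to 0.154 CPM in the shallowest of the 4 testis libraries without a read. PLIN1 had 1.18, 1.09, 2.27, 0.695 and 0.780 CPM in testis, against 0.611, 0.383, 15.9, 3.11 and 0.0979 CPM in epididymis. Epididymis replicates 3 and 4 were again the highest, and the other 3 epididymis libraries were below all testis libraries. At its narrowest this rests on 12 reads in epididymis replicate 1 and 13 in testis replicate 4, too few to tell these libraries apart. The log2 difference of PLIN1 was -1.66 ± 1.03 (SE), which was not called. It was -0.11 with the boar as a block, 0.26 without epididymis replicate 3 and 1.67, past the threshold, without replicates 3 and 4. PLIN1 overlaps 1 uncharacterised RefSeq gene.

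LPL encodes lipoprotein lipase, which frees fatty acids from circulating triglycerides in fat, muscle and other tissues. It had 11, 6.65, 7.82, 11.2 and 11.7 CPM in testis, against 5.60, 3.94, 19.5, 12.5 and 7.44 CPM in epididymis. The tissues overlapped throughout, with epididymis replicate 3 the highest library, and the log2 difference of 0.02 ± 0.38 (SE) was not called. Without epididymis replicates 3 and 4 it was 0.71 and called.

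LIPE encodes hormone-sensitive lipase, which releases fatty acids from stored fat. In human and rat, a longer form is made from its own first exon in the testis, in germ cells. LIPE had 821, 738, 775, 510 and 733 CPM in testis, against 7.28, 9.53, 21.5, 8.51 and 5.09 CPM in epididymis. Testis replicate 4 was the lowest of its tissue and epididymis replicate 3 the highest of its own, yet the tissues were far from overlapping. The means were 716 ± 120 CPM in testis and 10.4 ± 6.42 CPM in epididymis (SD, n = 5 each), a log2 difference of 6.14 ± 0.41 (SE) or 70.8-fold. LIPE overlaps ATP5SL, which was not analysed here. The deposited counts are per gene and do not separate the forms.

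Per kilobase of gene length, which allows genes to be compared, the order of mean levels in testis was LIPE (161 CPM per kb), ADIPOR2 (49.5), CFD (18.4), LEP (15.1), ADIPOR1 (8.22), ADIPOQ (3.18), LPL (1.93), PLIN1 (0.290), LEPR (0.0856) and FABP4 (0.0137). CFD and LEP overlapped between libraries there, at 15.0 to 26.9 CPM per kb for CFD and 13.2 to 16.7 for LEP, while every other pair of neighbours was separate in all 5 libraries. In epididymis the order was CFD (80.1 CPM per kb), ADIPOR2 (23.1), ADIPOR1 (10.4), FABP4 (2.71), LIPE (2.34), LPL (1.96), ADIPOQ (1.62), PLIN1 (0.969), LEPR (0.332) and LEP (0.103). From FABP4 down to LEP, each neighbour in that order overlapped with the next between libraries. LEP was thus the fourth of 10 in testis and the last in epididymis.

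The comparison of LEP with the other fat cell genes was made within each library, as a ratio of levels per kilobase. LEP over ADIPOQ was 6.62, 4.94, 4.91, 3.52 and 4.39 in testis replicates 1 to 5. In epididymis it was 0.0575 in replicate 3 (95% counting interval 0.0372 to 0.0853) and 0.0408 in replicate 4 (0.0109 to 0.107), the only libraries of that tissue with more than 1 ADIPOQ read. LEP therefore stood above ADIPOQ in every testis library and far below it in both of these. LEP over PLIN1 was 59.0, 58.1, 25.9, 79.0 and 85.6 in testis. In epididymis it was 0.368, 0.0959, 0.0920 and 1.93 in replicates 2 to 5, where the value of replicate 5 rests on 3 and 2 reads and has an interval of 0.221 to 23.1. LEP over CFD was 0.492 to 1.07 in testis and 0.000572 to 0.00283 in the epididymis libraries with LEP reads, and LEP over LPL was 5.91 to 11.5 in testis against 0.0276 to 0.0944. With FABP4 the ratio could be formed in testis replicate 4 alone, at 192, against 0.0217 to 0.207 in epididymis replicates 2 to 5. LIPE was the exception among the 6 genes, with LEP over LIPE at 0.0808 to 0.115 in testis and 0.0158 to 0.0760 in epididymis, of which 0.0760 is replicate 3.

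**Figure D2:**
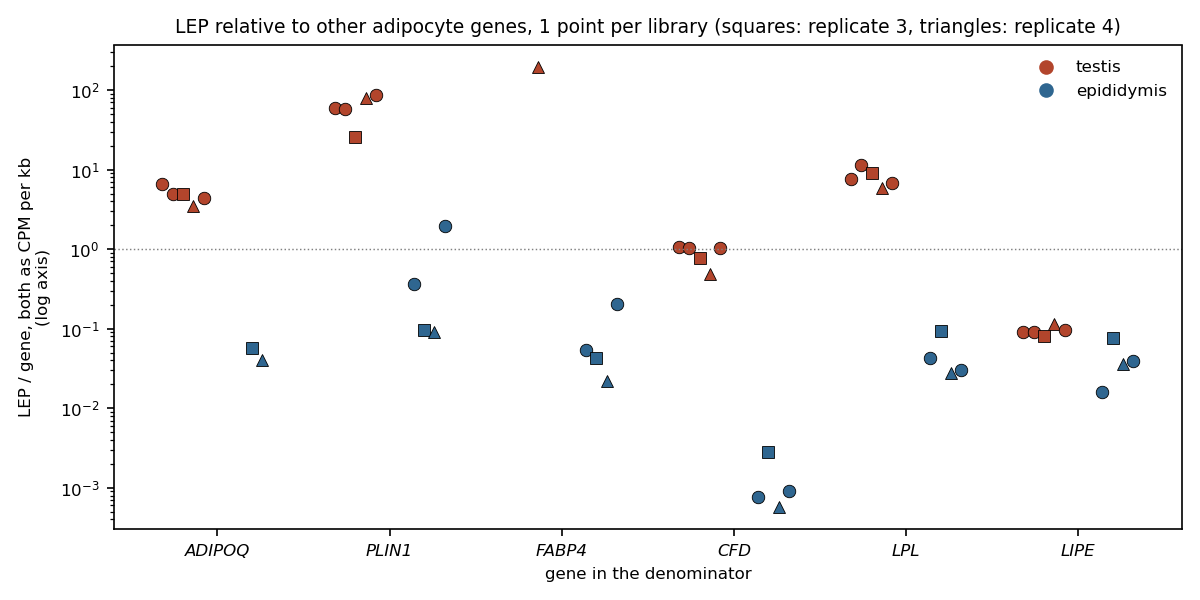
Ratio of LEP to 6 other fat cell genes within each library, both as CPM per kilobase, on a log axis with a dotted line at a ratio of 1; testis is red and drawn left of epididymis in blue, and squares and triangles are replicates 3 and 4. Libraries with 0 reads of either gene are not drawn; testis ratios lie above the epididymis ratios for all 6 genes, and for LIPE by little (lowest testis 0.0808, highest epididymis 0.0760).

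The fat cell genes also stood in other proportions to each other in testis than in the epididymis libraries that held most of them. Per kilobase, PLIN1 was 0.0446 to 0.190 of ADIPOQ in testis, against 0.600 in epididymis replicate 3 and 0.443 in replicate 4. FABP4 was 0 to 0.0183 of ADIPOQ in testis, against 1.35 in epididymis replicate 3 and 1.88 in replicate 4. ADIPOQ in testis thus came with little PLIN1 and nearly no FABP4. If the testis libraries held these genes in the proportion to LEP found in epididymis replicate 3, their ADIPOQ reads would go with 0.47 to 0.70 CPM of LEP, which is 0.87% to 1.6% of the LEP measured. By PLIN1 it would be 0.052 to 0.17 CPM (at most 0.37%), by CFD 0.14 to 0.25 CPM, by LPL 0.41 to 0.71 CPM and by FABP4 at most 0.0094 CPM. By LIPE it would be 28 to 45 CPM, or 66% to 94%. With the proportions of epididymis replicate 4 the values were 0.33 to 0.49 CPM by ADIPOQ, 0.050 to 0.16 CPM by PLIN1 and 13 to 21 CPM by LIPE. These proportions come from 2 libraries with 26 and 4 LEP reads, and no library of fat tissue was analysed here. Epididymis replicate 3 also held 468 CPM of summed germ cell genes, against 23.6 to 73.6 CPM in the other epididymis libraries, and the part of these in its LEP reads was not tested.

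Set beside the summed level of 10 germ cell genes, LEP had overlapping values in both tissues. Per 1000 CPM of these genes it had 4.26, 4.26, 3.79, 2.80 and 4.47 CPM in testis replicates 1 to 5. In epididymis it had 0, 3.51, 2.53, 3.02 and 3.84 CPM in replicates 1 to 5, with 95% counting intervals of 0 to 7.98, 0.424 to 12.7, 1.65 to 3.71, 0.823 to 7.76 and 0.790 to 11.3. The germ cell sums themselves ran from 11569 to 15198 CPM in testis and from 23.6 to 468 CPM in epididymis. The other fat cell genes were set beside the same sum. Because the sum is so much lower in epididymis, any gene without a similarly large tissue difference has a higher ratio there. These ratios thus restate the tissue differences and do not show the source of the reads. The same holds for the Leydig cell sum below. Per 1000 CPM of germ cell genes, CFD, FABP4, PLIN1 and LPL were higher in every epididymis library than in any testis library, for example 0.0457 to 0.189 CPM of PLIN1 in testis and 2.56 to 42.3 CPM in epididymis. LIPE overlapped, at 33.5 to 64.8 CPM in testis and 45.9 to 308 CPM in epididymis, where 45.9 is replicate 3. ADIPOQ had 0.768 to 1.21 CPM in testis, against 52.5 and 88.4 CPM in epididymis replicates 3 and 4, while in epididymis replicates 1, 2 and 5, with 1 read between them, the counting intervals cover the testis values. Beside the 9 Leydig cell genes, LEP had 2.13 to 3.54 CPM per 1000 CPM in testis and 0, 0.584, 1.77, 0.578 and 1.07 CPM in epididymis replicates 1 to 5, with counting intervals that reach 2.59 in replicate 3 and 3.13 in replicate 5. Most of that epididymal sum is SCARB1, which other cells also express. Without SCARB1, left out after seeing the data, LEP had 2.26 to 3.76 CPM in testis and 0, 1.62, 19.1, 3.81 and 2.23 CPM in epididymis, so the tissues then overlapped and replicate 3 was far above the others. LIPE beside all 9 genes overlapped too, at 31.9 to 53.8 CPM in testis and 22.1 to 50.8 CPM in epididymis. Which cells the reads came from cannot be told from whole tissue.

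**Figure D3:**
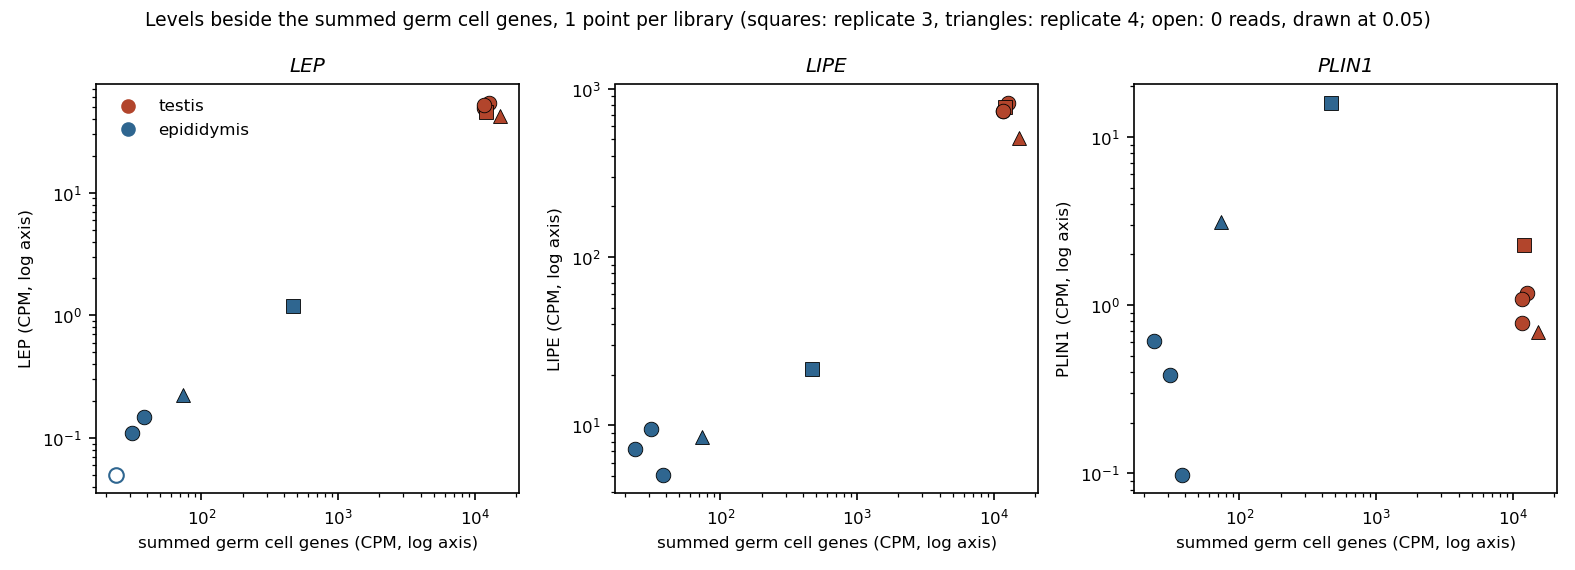
LEP, LIPE and PLIN1 against the summed level of 10 germ cell genes, all in CPM on log axes, 1 point per library with testis in red and epididymis in blue; squares and triangles are replicates 3 and 4. The epididymis library with most germ cell reads (468 CPM) is also the highest of its tissue for LEP (1.19 CPM), LIPE (21.5 CPM) and PLIN1 (15.9 CPM), and the open point is the library with 0 LEP reads, drawn at 0.05.

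Among 13816 tested genes with a symbol, the 5 whose pattern over the 10 libraries was most like that of LEP were FAM229B, PRKCQ, CCDC188, FAM71F2 and TSSK6, a kinase of the elongating spermatid. Likeness is the root mean squared difference of log2 CPM after centring each gene, and it was 0.21 to 0.29 for these genes. TSSK6, for example, had 1097 ± 61.7 CPM in testis and 9.11 ± 11.5 CPM in epididymis (SD, n = 5 each). Like LEP, by which they were picked, these genes peak in epididymis replicate 3 within their tissue. The same measure was 0.82 for LIPE, 2.45 for ADIPOQ and 3.28 to 4.76 for the other members tested. For ADIPOQ the closest were ABCA12, ERBB4, CA3, VSTM2L and RNF128, at 0.91 to 1.20. CA3, a carbonic anhydrase of muscle and fat, had 41.4 ± 15.6 CPM in testis and 4.72 ± 8.56 CPM in epididymis, of which 19.8 CPM in replicate 3. Within testis alone LEP varied so little that its closest genes, RCL1, ATRN, BFAR, PRKD1 and MARCKS, differed by 0.01 to 0.03.

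The wider adipocyte list gives the other fat cell genes, which are no members. Of 22 listed genes, 20 had a row and 13 were tested, of which 3 were higher in testis, 7 were higher in epididymis and 3 were not called, with a median log2 difference of -1.41 against -0.07 over all genes. The median is the same with LGALS12 at its lower bound. The 3 higher in testis were DGAT2, SCD and PDE3B. DGAT2, which makes triglycerides, had 203 ± 14.6 CPM in testis and 1.88 ± 2.36 CPM in epididymis (log2 6.80 ± 0.75 SE, edgeR adjusted p = 6.65e-06; 7.91 without epididymis replicate 3). SCD, the stearoyl-CoA desaturase, had 341 ± 44.3 CPM in testis and 113 ± 121 CPM in epididymis (log2 1.63, adjusted p = 0.0125; 2.50 without epididymis replicate 3). PDE3B, the phosphodiesterase by which insulin restrains lipolysis, was at 34.8 ± 8.45 CPM in testis and 6.72 ± 2.30 CPM in epididymis (adjusted p = 5.18e-06).

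Of the 7 genes of this list called higher in epididymis, ITGA7, GPD1 and CD36 had the highest mean levels. ITGA7, an integrin of muscle, had a log2 difference of -3.39 (edgeR adjusted p = 2.02e-05). GPD1, which makes the glycerol backbone of triglycerides, had 40.7 ± 5.10 CPM in testis and 111 ± 104 CPM in epididymis (log2 -1.41, adjusted p = 0.0123), and -0.68 without epididymis replicate 3. CD36, a fatty acid transporter, had 0.657 to 2.08 CPM in testis and 1.07, 1.31, 53.0, 11 and 1.76 CPM in epididymis. Its log2 difference of -3.51 (adjusted p = 0.00919) was -1.67 without epididymis replicate 3, and with the boar as a block its call was lost (adjusted p = 0.0840). The fat cell regulators PPARG and CEBPA were not called, at 0.927 ± 0.417 CPM in testis and 1.08 ± 0.802 CPM in epididymis for PPARG, and 7.30 ± 3.21 CPM in testis and 6.96 ± 4.91 CPM in epididymis for CEBPA.

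Another 4 genes of the list were chosen after their values were seen, because they are droplet or fat cell proteins at low level. CIDEC, which fuses lipid droplets, had 0.716 ± 0.169 CPM in testis and 2.61 ± 1.42 CPM in epididymis (edgeR adjusted p = 0.00122). PLIN4, another droplet coat protein, had 2.19 ± 0.851 CPM in testis and 6.73 ± 7.06 CPM in epididymis (adjusted p = 0.0387). The PLIN4 call was lost without testis replicate 1, 2, 4 or 5 or epididymis replicate 3, and with the boar as a block. LGALS12, a galectin of fat cell droplets, had 0 reads in testis and 1093 in epididymis, at least 424-fold lower in testis when set against 3 reads over all testis libraries. Its epididymal levels of 4.78 to 18.4 CPM were present in every library, and not just in replicates 3 and 4. THRSP, a regulator of fat synthesis, had 1 read in testis and 201 in epididymis. All 4 have more reads in epididymis. The same is true of SLC2A4 (135 reads in testis, 1289 in epididymis), TRARG1 (16 and 180) and PCK1 (6 and 97). SLC2A4 was called higher in epididymis (log2 -3.41, edgeR adjusted p = 3.6e-05). It also holds for ADRB3 (9 and 31) and SLC7A10 (46 and 66). In contrast, 2 other genes of the list at low level, also chosen after their values were seen, have more in testis. ACVR1C, an activin receptor of fat cells, had 41 reads in testis and 0 in epididymis, at least 11.7-fold higher in testis when set against 3 reads over all epididymis libraries, and RETN, the gene of resistin, had 6 reads in testis and 2 in epididymis. The summed level of the 20 genes was 590 to 691 CPM in testis and 228 to 850 CPM in epididymis, with epididymis replicate 3 the highest.

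Downstream of LEPR, 19 leptin pathway genes were tested, of which 2 were higher in testis, 8 were higher in epididymis and 9 were not called (median log2 -0.41). STAT3, the main transcription factor of the pathway, was at 147 ± 23.8 CPM in testis and 152 ± 19.1 CPM in epididymis and was not called. IRS1, the insulin receptor substrate, had 88.1 ± 22.6 CPM in testis and 10.8 ± 8.88 CPM in epididymis (log2 3.07, edgeR adjusted p = 7.27e-05; 3.67 without epididymis replicate 3), and FOXO1, a transcription factor that the pathway restrains, was also higher in testis (log2 0.90, adjusted p = 6.45e-04). AKT1, the kinase between them, had 61.7 ± 8.06 CPM in testis and 184 ± 25.4 CPM in epididymis (log2 -1.56, adjusted p = 6.45e-06). LEPROT, named as a transcript that overlaps the leptin receptor's and known to limit that receptor at the cell surface, had 53.9 ± 9.86 CPM in testis and 102 ± 40.8 CPM in epididymis (adjusted p = 0.00628).

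Of 18 adiponectin pathway genes, all tested, 5 were higher in testis, 8 were higher in epididymis and 5 were not called (median log2 -0.46). STK11, the kinase that activates AMP-activated kinase, had 232 ± 30.2 CPM in testis and 116 ± 23.2 CPM in epididymis (log2 1.02, edgeR adjusted p = 3.43e-04). CDH13, a surface protein that binds adiponectin, had 22.8 ± 3.97 CPM in testis and 47.7 ± 20.4 CPM in epididymis (log2 -1.03, adjusted p = 0.00864), and CALR, a chaperone that also serves as an adiponectin receptor on phagocytes, was higher in epididymis too (log2 -0.99, adjusted p = 7.34e-04). Of the other genes of the PAQR family, to which both adiponectin receptors belong, 4 of 8 tested were higher in testis, 3 were higher in epididymis and 1 was not called (median log2 1.45). PAQR5 and PAQR7, membrane receptors for progestins, had 337 ± 61.7 CPM and 116 ± 10.9 CPM in testis, against 3.74 ± 6.03 CPM and 5.09 ± 1.53 CPM in epididymis (adjusted p = 4.92e-05 and 5.11e-08). The log2 difference of PAQR5 was 6.54, and 8.33 without epididymis replicate 3. MMD2, another member of the family, was lower in testis, at 0.144 ± 0.128 CPM, against 90.1 ± 24.3 CPM in epididymis (log2 -9.18, adjusted p = 7.70e-08).

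**Figure D4:**
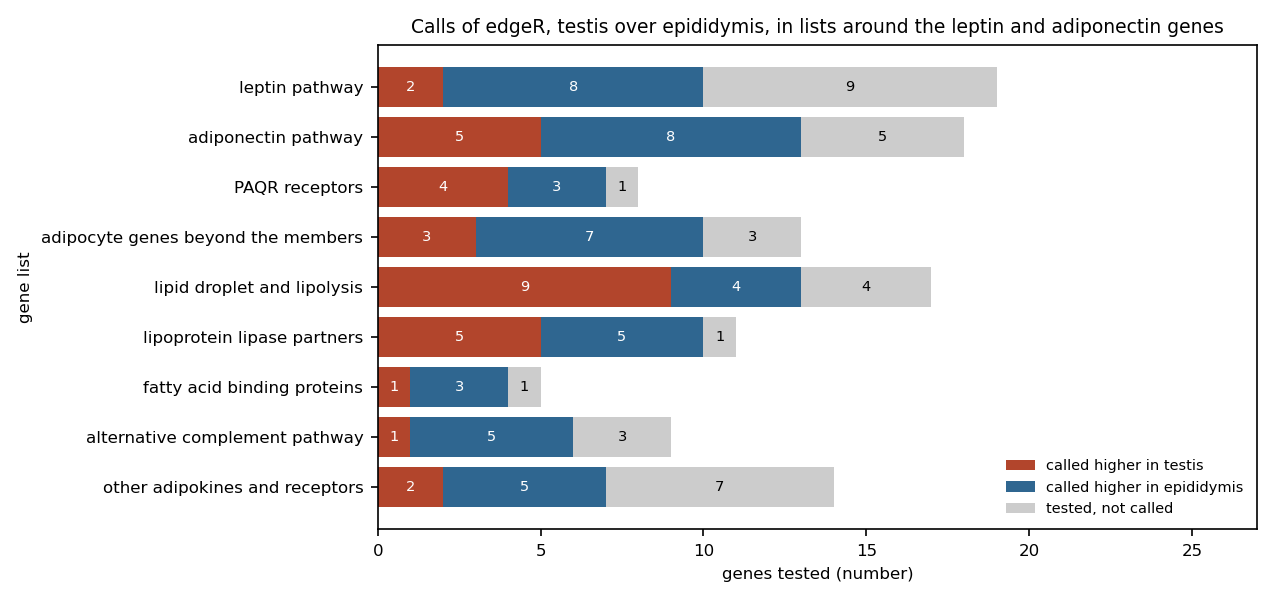
Number of tested genes in each of 9 lists around the members that were called higher in testis (red), called higher in epididymis (blue) or not called (grey) by edgeR at an adjusted p under 0.05; bars start at 0. The same shares over all genes tested are 36.6% for testis and 37.8% for epididymis; the lipid droplet and lipolysis list has 9 of 17 higher in testis, and the adipocyte list 7 of 13 higher in epididymis.

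Around PLIN1 and LIPE, the lipid droplet and lipolysis list had 17 genes tested, of which 9 were higher in testis, 4 were higher in epididymis and 4 were not called (median log2 0.92). BSCL2, the seipin of droplet formation, had 1002 ± 158 CPM in testis and 98.0 ± 23.2 CPM in epididymis (log2 3.37, edgeR adjusted p = 3.16e-07). LPIN1, a phosphatidate phosphatase, had 543 ± 19.3 CPM in testis and 11.4 ± 5.69 CPM in epididymis (log2 5.60, adjusted p = 6.08e-08). PNPLA2, the lipase that acts before LIPE, was at 220 ± 23.2 CPM in testis and 117 ± 28.9 CPM in epididymis (adjusted p = 0.00150). MGLL, the lipase that acts after it, was higher in epididymis, at 18.3 ± 3.61 CPM in testis and 71.8 ± 40.8 CPM in epididymis (adjusted p = 3.15e-04). PLIN2, a droplet coat protein made in many cell types, had 18.3 ± 6.66 CPM in testis and 209 ± 97.3 CPM in epididymis (log2 -3.49, adjusted p = 1.44e-06).

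Around LPL, 11 of 15 genes with a row were tested, of which 5 were higher in testis, 5 were higher in epididymis and 1 was not called (median log2 -0.57). SCARB1, the receptor for high density lipoprotein that also stands in the Leydig cell list, had 968 ± 200 CPM in testis and 266 ± 214 CPM in epididymis (edgeR adjusted p = 0.00296). FURIN, a protease that cleaves LPL, had 88.4 ± 19.1 CPM in testis and 308 ± 186 CPM in epididymis (adjusted p = 9.58e-04). Among the relatives of FABP4, 5 of 11 with a row were tested, of which 1 was higher in testis, 3 were higher in epididymis and 1 was not called (median log2 -1.39). FABP5, the epidermal form, had 5.12 ± 3.01 CPM in testis and 120 ± 65.9 CPM in epididymis (log2 -4.57, adjusted p = 2.90e-05). FABP3, the heart form, was called higher in testis (6.99 ± 1.73 CPM in testis, 4.12 ± 1.31 CPM in epididymis, adjusted p = 0.0464), a call lost without testis replicate 1, 2, 3 or 5 or epididymis replicate 3 or 4.

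Around CFD, a list on the alternative complement pathway was followed, which also holds MASP2 and the receptors C3AR1 and C5AR1 from outside the pathway itself. Of its 9 genes tested, 1 was higher in testis, 5 were higher in epididymis and 3 were not called (median log2 -1.33). MASP2 and C5AR1 are among those higher in epididymis. C3, the central component, had 414 ± 54.2 CPM in testis and 199 ± 165 CPM in epididymis (log2 1.13, edgeR adjusted p = 0.0413), and its call was lost without testis replicate 1, 2, 3 or 5 or epididymis replicate 1, 2 or 5. MASP1, whose protein activates CFD, had 4.96 ± 1.29 CPM in testis and 71.8 ± 50.6 CPM in epididymis (log2 -3.83, adjusted p = 7.07e-05), and CFP, properdin, had 12.1 ± 1.46 CPM in testis and 31.6 ± 5.35 CPM in epididymis (adjusted p = 5.50e-05). Of the other adipokines and their receptors, 14 of 18 with a row were tested, of which 2 were higher in testis, 5 were higher in epididymis and 7 were not called (median log2 -0.39). APLNR, the apelin receptor, was higher in testis (log2 2.47, adjusted p = 3.51e-05), while RARRES2, which encodes the adipokine chemerin, was higher in epididymis (log2 -2.33, adjusted p = 1.82e-06).

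Cells that commonly accompany fat were also followed. Of 9 tested genes of fibroblasts and preadipocytes, 8 were higher in epididymis (summed level 387 to 898 CPM in testis and 1702 to 5588 CPM in epididymis, highest in replicate 3). Of 10 endothelial genes, 6 were higher in epididymis (277 to 496 CPM in testis and 276 to 670 CPM in epididymis). Of 10 macrophage genes, epididymis had 7 called higher and testis 1. The 7 became 3 without testis replicate 1 or 5 or epididymis replicate 4, and 4 without testis replicate 3. Of the 9 genes of Sertoli cells, the nurse cells of the germ line, testis had 8 called higher and epididymis 1. The part of these cells in the levels of the members was not tested.

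In the RefSeq table of Sscrofa11.1, LEP lies at chr18:20106867-20124071, with no gene overlapping it and RBM28, the nearest named one, 37708 bases away. LEPR is at chr6:146802297-146896152, ADIPOQ at chr13:124633906-124646237, ADIPOR1 at chr10:24907491-24923540 and ADIPOR2 at chr5:68755789-68807247. CFD is at chr2:77509792-77511988, FABP4 at chr4:55096400-55101209, PLIN1 at chr7:55237517-55250797, LPL at chr14:4104761-4134964 and LIPE at chr6:49543671-49560126. Each range spans the whole gene, exons and introns. Counts were summed over the exons of each gene, whose length per the file headers runs from 1098 bases for CFD to 11220 for LEPR.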

How the data were processed

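The 5 testis and 5 epididymis short-read RNA-seq libraries were used, and 2 long-read libraries, made from pooled boars, were not. Per the labels' protocols, oligo(dT) beads selected poly(A) RNA, and SMARTer cDNA was cut to size on a gel before PCR. The submitters' processing notes name cutadapt 3.0, STAR, featureCounts, Subread and the build Sscrofa11.1. For annotation, strand setting and reads with several places, the sources used here give nothing. The authors deposited raw read counts per gene with gene lengths, and no normalized values. Rows named by an Ensembl identifier numbered 15226, and 810 of them took a symbol from a RefSeq table, which held 822.

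CPM is a count over the library total, and CPM per kb divides this by gene length too. With 0 reads, up to 3 remain possible, which is 0.0993 to 0.167 CPM per library. Reads carry no molecular identifiers, so exact 95% intervals and such limits describe counting error alone. Libraries were compared in pairs before averaging: none were identical, with chi-square over degrees of freedom of at least 10.3 in testis and 78.9 in epididymis, and each is 1 replicate.

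Counts were tested with edgeR 4.0.16 in R 4.3.3 (filterByExpr, TMM, robust quasi-likelihood test on tissue, Benjamini-Hochberg over all 17225 genes). The SE is the unshrunken log2 difference over the square root of F. Alternatives were DESeq2 1.42.0, its size factors, no filter, the boar as a block, left-out libraries and removal of histone, small RNA and mitochondrial rows. The p-values measure the spread between 5 libraries per tissue, 1 boar each. Animal numbers in the file headers pair the tissues, and deviations from the tissue means correlated at 0.009 to 0.089 within boars. The fit was run on simulated counts with the same spread for every gene. This does not cover genes whose level was set by single libraries.

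The members and gene lists were chosen with earlier results of these data known. By a rule on mean CPM, each list could name up to 3 genes called in each direction and 2 not called, of which some are given; for LEP and ADIPOQ the 5 most alike genes were named. No sequences are shown.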

Additional observations from a re-analysis of the deposited data

Results flagged for a closer look

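A library is listed here where the gap between it and its nearest neighbour was most of the range of its tissue (Dixon's criterion at 95%, 5 libraries). This was so in 22 of 94 combinations of gene and tissue, over 47 genes. Epididymis replicate 3 was the library in 10 of them and testis replicate 4 in 7. The criterion's rate of about 1 in 20 holds for independent values with a normal distribution. CPM of genes from the same libraries need not meet this, so the count is not set against chance. In testis, FABP4 and THRSP had reads in 1 library each and were flagged by construction.

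Epididymis replicate 3 was the highest of its tissue for LEP (1.19 CPM), ADIPOQ (24.6 CPM), PLIN1 (15.9 CPM) and LIPE (21.5 CPM) among the members. It was also the highest for the fat cell genes SCD (326 CPM), GPD1 (296 CPM), CD36 (53.0 CPM) and PLIN4 (18.9 CPM), for the insulin receptor substrate IRS1 (26.3 CPM) and for the progestin receptor PAQR5 (14.5 CPM). Germ cell genes were raised in the same library, as given with the ratios of LEP, and their part in these values was not tested.

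Testis replicate 4, the testis library with few small structural RNAs, was the lowest of its tissue for LIPE (510 CPM) and BSCL2 (725 CPM). It was the highest for STK11 (285 CPM), GPD1 (49.8 CPM), PLIN2 (30.1 CPM) and RARRES2 (17.8 CPM), and for FABP4, where it held the 2 reads found in testis (0.107 CPM). The part of its RNA content in these values was not tested.

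Of the rest, LEPR reached 11.6 CPM in epididymis replicate 5, PLIN2 379 CPM in epididymis replicate 4 and MGLL 142 CPM in epididymis replicate 2. CDH13 was lowest in testis replicate 1 (15.9 CPM), and the 1 testis read of THRSP lay in replicate 2 (0.0331 CPM).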

How the results depend on the processing

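When testis replicate 4 stood alone against the epididymis, so that the spread comes from the epididymis only, 6566 genes were called in place of 12814, 2145 higher in epididymis in place of 6506, and 28 list genes higher in epididymis in place of 77. Without a filter 15881 of 27584 genes tested were called, against 12814 of 17225 with it. Of the 15881, 8632 were higher in testis. With testis replicate 4 alone, calls higher in testis were 67.3% of all calls, against 49.2%. CFD (-1.45) and LEPR (-2.05) lost their calls there. Leaving out single libraries gave 12351 to 13701 genes called, and log2 differences of 6.87 to 8.61 for LEP, 5.96 to 6.56 for LIPE and 1.08 to 1.19 for ADIPOR2. Without epididymis replicates 3 and 4 together LEP was 9.0, ADIPOQ 9.01 and PLIN1 1.67, ADIPOR1 (-0.47) was called higher in epididymis and CEBPA (adjusted p = 0.0421) higher in testis, while CD36 lost its call (adjusted p = 0.486). DESeq2 and its size factors moved the median of all genes by 0.13 and gave 1.24 for ADIPOR2 and 0.11 for STAT3 (against -0.02). With the boar as a replicate block 12362 genes were called, LEPR (-1.30), CD36 (-1.84) and PLIN4 (-1.12) lost their calls, the other named calls held, and ADIPOQ (4.04) and PLIN1 (-0.11) moved without a call. Genes near 0 changed sign: STAT3 was 0.02 without epididymis replicates 3 and 4 and with histone, small RNA and mitochondrial rows removed, and -0.09 to 0.08 with single libraries left out. CEBPA ran from -0.15 to 0.53 and PPARG from -0.47 to 0.23 with single libraries left out, and PPARG was 0.07 under the block, 0.60 with testis replicate 4 alone and 0.57 without epididymis replicates 3 and 4. The median ratio of LEP to the summed other 6 fat cell genes per kb was 0.0822 in testis and 0.000709 in epididymis. It was 0.0637 in testis and 0.00173 in epididymis without division by length, 4.18 in testis and 0.0360 in epididymis with ADIPOQ and PLIN1 alone, 0.0892 in testis replicate 4, and 0.732 in testis without LIPE, an alternative chosen after seeing the data. Of 36 other named genes tested, 19 stayed on their side of the threshold under all alternatives, 2 of these with a change of sign, 16 lost a call in at least 1, each of them with testis replicate 4 alone, and CEBPA gained 1 and also changed sign. The cause of these shifts was not tested. The low counts of LEP in epididymis, FABP4 in testis and ADIPOQ in 3 epididymis libraries limit their ratios.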
